A study of Caenorhabditis elegans with 43 samples.

Results

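The *atfs-1(et15)* strain was compared with wild-type worms of the same sequencing batch, using 5 *atfs-1(et15)* libraries and 3 wild-type libraries out of the 43 libraries of the study. *atfs-1(et15)* carries a point mutation that affects the mitochondrial targeting sequence of ATFS-1 and acts as a gain of function. The wild type was N2 Bristol. Each library was mRNA of whole prefertile young adult worms, grown at 20 °C on NGM plates with live OP50 bacteria, with RNA isolated separately for each sample. Both groups share these conditions. The authors had removed 1 further *atfs-1(et15)* replicate after principal component analysis, so its replicates are numbered 2 to 6, while those of the wild type are numbered 1 to 3. Each sample was a plate of synchronized worms, and because whole worms were used, fewer cells of a type and less RNA per cell cannot be told apart.

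ATFS-1 is the transcription factor that runs the mitoUPR, the unfolded protein response of mitochondria. In healthy worms it is imported into mitochondria and degraded, and when import fails it enters the nucleus and raises genes for mitochondrial chaperones, proteases, detoxification and glycolysis. A protein with a weakened targeting sequence is imported poorly and is active without mitochondrial stress. A second process bears on young adult samples. Worms molt between larval stages, and genes for the cuticle and for shedding it peak with every molt. After the last molt, the intestine of the young adult begins to make vitellogenins, the yolk proteins that oocytes take up. Molting transcripts therefore go down and yolk transcripts go up as worms pass from the last larval stage into adulthood.

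A molting score and a yolk score were computed for each library as the mean of log2(normalized CPM + 0.5) over 15 molting genes and 6 vitellogenin genes. The molting scores of *atfs-1(et15)* worms were 6.76, 7.46, 6.26, 6.06 and 6.39, against 3.75, 5.66 and 3.37 in wild-type worms, without overlap. The yolk scores of *atfs-1(et15)* worms were 9.41, 6.65, 10.26, 9.02 and 8.47, against 12.69, 11.44 and 13.27 in wild-type worms, also without overlap. Replicate 3 of *atfs-1(et15)* had the highest molting score and the lowest yolk score of the 8 libraries, and replicate 2 of the wild type stood nearest to *atfs-1(et15)* on both. The molting score minus the yolk score, used below as a stage index, lay between -4.0 and 0.80 in *atfs-1(et15)*, between -9.91 and -5.79 in wild-type worms of the same batch, and between -8.08 and -3.83 in the other 9 wild-type libraries, from batches 2 and 3. Thus no wild-type library of any batch reached the index of an *atfs-1(et15)* library except replicate 7 of batch 2, at -3.83. Its yolk score of 11.33 was above all 5 of *atfs-1(et15)*, and so was its molting score. The molting score of wild-type replicate 6 of batch 2 lay within the *atfs-1(et15)* range. In a principal component analysis of the 8 libraries, the first component held 69.6% of the variance and separated the 2 groups. Between 30045912 and 35910882 reads (median 34255394) were counted per *atfs-1(et15)* library and between 34767878 and 36403473 (median 35800253) per wild-type library of the batch.

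**Figure D1:**
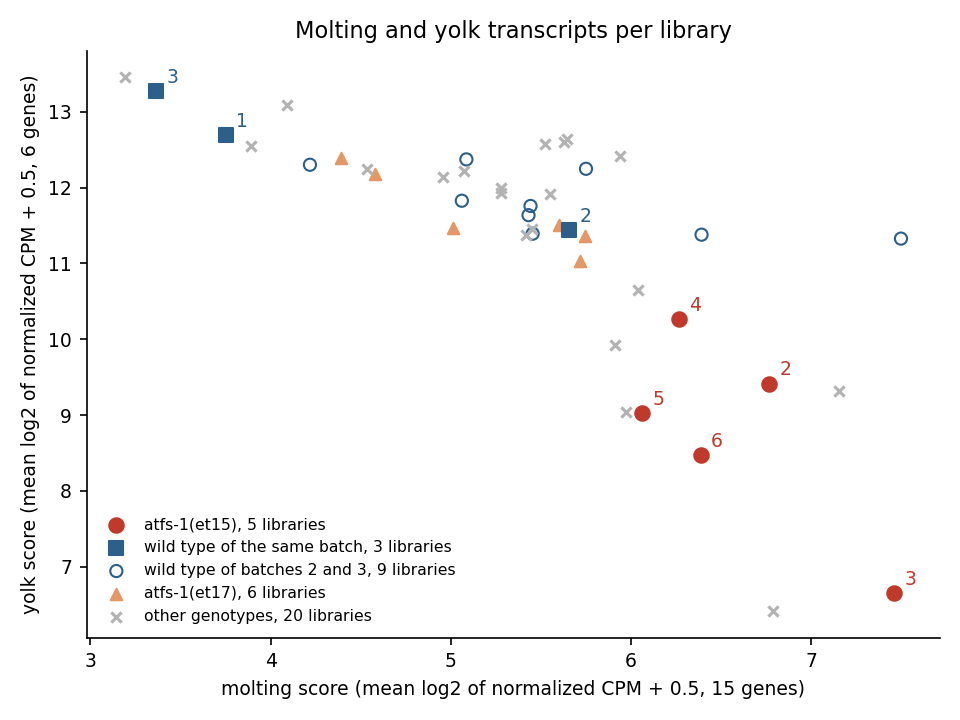
Each point is 1 of the 43 libraries, with the molting score on the horizontal axis and the yolk score on the vertical axis, both as mean log2 of normalized CPM + 0.5. The 5 *atfs-1(et15)* libraries (red circles, replicate numbers beside them) lie at molting scores of 6.06 to 7.46 and yolk scores of 6.65 to 10.26, to the right of and below the 3 wild-type libraries of batch 1 (blue squares).

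Of 13837 genes tested, 4602 differed between *atfs-1(et15)* and wild-type worms at an adjusted p under 0.05 (limma on log2 of normalized CPM + 0.5, Benjamini-Hochberg adjustment), which is 33.3% of the genes tested. 2337 were higher (16.9%) and 2265 lower (16.37%). When values were scaled by library size alone, 3841 genes were called and 67.6% of them were higher, compared with 50.8% under the authors' normalization. The median over all genes was 0.06 on the log2 scale with library size alone and -0.04 with the authors' normalization, and fold changes stand relative to these medians. Every *atfs-1(et15)* library was above every wild-type library for 2152 genes (15.6%) and below for 1600 (11.6%). Of the called genes, 1720 changed at least 2-fold, 1268 of them higher and 452 lower. The count rested in part on single libraries, and it was 2344 without wild-type replicate 3 (the highest yolk score), 2763 without wild-type replicate 1, 5299 without wild-type replicate 2, and between 3519 and 4807 without any 1 *atfs-1(et15)* library.

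Genes of molting formed the first large group. Of the 15 molting genes, 12 were called higher in *atfs-1(et15)* and 0 lower (background 16.9% higher), with a median log2 fold change of 2.55. Without 1 library at a time, between 8 and 13 of them were called higher, with the fewest without wild-type replicate 1 or 3. *mlt-11*, which encodes a protein with protease inhibitor domains needed for molting, had 427, 1139, 322, 124 and 289 normalized CPM in *atfs-1(et15)* worms, against 8.47, 75.2 and 3.55 in wild-type worms (log2 fold change 4.66, standard error 0.89, adjusted p = 0.000151, limma). All 5 *atfs-1(et15)* values lay above the wild-type values, with the highest in replicate 3 and wild-type replicate 2 well above the other 2 wild-type libraries. *noah-1*, which encodes a protein of the embryonic and larval apical extracellular matrix, had 309.6, 668, 141, 134 and 198 normalized CPM in *atfs-1(et15)* worms, against 9.21, 56.5 and 7.80 in wild-type worms (log2 fold change 3.85, standard error 0.75, adjusted p = 0.000204, limma). *fbn-1*, a fibrillin-related gene of the matrix, had 78.7, 203, 28, 22.8 and 59.1 normalized CPM in *atfs-1(et15)* worms, against 3.77, 10.4 and 4.65 in wild-type worms (log2 fold change 3.22, standard error 0.64, adjusted p = 0.000231, limma). For both genes replicate 3 was highest among the *atfs-1(et15)* libraries and replicate 2 highest among the wild type. *lin-42*, the worm homolog of the clock gene *period*, whose transcript cycles with the molts, had 216, 343, 227, 158 and 176 normalized CPM in *atfs-1(et15)* worms, against 27.7, 109 and 16 in wild-type worms (log2 fold change 2.55, standard error 0.61, adjusted p = 0.00178, limma). *qua-1*, a hedgehog-related gene required for molting, had a log2 change of 3.48 (adjusted p = 0.00159, limma), *noah-2* of 3.45 (adjusted p = 0.000235, limma) and *mlt-9* of 3.48 (adjusted p = 0.000752, limma). Those of *acn-1*, *mlt-8*, *mlt-10*, *bli-5* and *nas-37*, the last an astacin metalloprotease that opens the old cuticle, lay between 0.96 and 2.87, each called. The molting genes that were not called were *mlt-7* (log2 fold change 0.33), *nas-36* (0.74) and *nhr-23*, the nuclear receptor that drives molting (-0.27).

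Cuticle genes rose with them. Cuticle collagens are made in the epidermis in bursts before each molt, and most stages have collagens of their own. Of 134 cuticle collagens tested, 83 were called higher and 17 lower (background 16.9% higher and 16.37% lower), with a median log2 fold change of 1.30. The collagen genes *dpy-7*, *dpy-8* and *dpy-3* build the circumferential furrows of the cuticle. *dpy-7* had 51, 90.2, 31, 31.2 and 26.4 normalized CPM in *atfs-1(et15)* worms, against 0.892, 9.85 and 0.428 in wild-type worms (log2 fold change 4.134, standard error 0.78, adjusted p = 0.00014, limma). *dpy-8* changed by 4.18 on the log2 scale (adjusted p = 0.00017, limma) and *dpy-3* by 4.20 (adjusted p = 7.09e-05, limma), and in all of the furrow collagens wild-type replicate 2 was several times above the other wild-type libraries. *col-176* had 161, 383, 86.0, 106 and 80.5 normalized CPM in *atfs-1(et15)* worms, against 2.17, 5.01 and 2.14 in wild-type worms (log2 fold change 5.33, standard error 0.66, adjusted p = 1.05e-07, limma). The family was not all on one side, and *col-135* fell, with 4.18, 0.403, 5.74, 5.4 and 5.60 normalized CPM in *atfs-1(et15)* worms, against 49.4, 26.2 and 86.2 in wild-type worms (log2 fold change -3.63, standard error 0.52, adjusted p = 1.83e-06, limma). Although most collagen genes were higher, the summed level of the list was 52382 normalized CPM in *atfs-1(et15)* and 48759.9 in wild-type worms (group means). Hedgehog-related genes, which in *C. elegans* act largely in the epidermis and its cuticle, rose in the same way, with 37 of 59 called higher and 5 lower, and a median of 1.27. The warthog gene *wrt-2* had 42.6, 71.6, 23.6, 25.2 and 25.3 normalized CPM in *atfs-1(et15)* worms, against 0.862, 9.88 and 0.52 in wild-type worms (log2 fold change 3.83, standard error 0.80, adjusted p = 0.000449, limma). *wrt-10* (log2 fold change 3.95), *wrt-1* (3.81) and the ground-like gene *grl-5* (3.56) were also called higher. Without wild-type replicate 3, 36 collagens and 20 hedgehog-related genes were called higher. Leaving out wild-type replicate 1 gave 24 hedgehog-related genes higher and 11 collagens lower.

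Yolk transcripts were far lower in *atfs-1(et15)* worms. All 6 vitellogenin genes were called lower (background 16.37% lower), with a median log2 fold change of -3.79, and all 6 were called lower whichever of the 8 libraries was left out. Their summed level was 7006, 1674, 14384, 6302 and 4964 normalized CPM in *atfs-1(et15)* worms, against 57467, 27022 and 76683 in wild-type worms. Replicate 3 had the least yolk RNA, and the *atfs-1(et15)* library with the most was still below the wild-type library with the least. *vit-5* had 627, 58.5, 963, 358 and 219 normalized CPM in *atfs-1(et15)* worms, against 7182, 3023 and 11270.3 in wild-type worms (log2 fold change -4.34, standard error 0.67, adjusted p = 6.08e-06, limma). *vit-6*, the only vitellogenin gene outside chromosome X, had 3127, 945, 6599, 2877 and 2331 normalized CPM in *atfs-1(et15)* worms, against 22581, 11615 and 27051 in wild-type worms (log2 fold change -2.86, standard error 0.57, adjusted p = 0.000274, limma). *vit-3* (-4.50) and *vit-4* (-4.20) were close to *vit-5*, and these 3 genes are near-identical copies, so reads may have been split among them. *vit-1* and *vit-2* had log2 changes of -3.38 and -2.95.

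Oocyte and germline transcripts were lower too, by less. Of 20 oocyte and eggshell genes, 13 were called lower and 0 higher, with a median of -1.15, but only 3 without *atfs-1(et15)* replicate 3, 3 without wild-type replicate 1, 2 without wild-type replicate 3, and all 20 without wild-type replicate 2 or without *atfs-1(et15)* replicate 4. *oma-2*, a zinc-finger regulator of oocyte maturation, had 61.1, 9.5, 153, 113.6 and 92.9 normalized CPM in *atfs-1(et15)* worms, against 233, 121 and 294 in wild-type worms (log2 fold change -1.68, standard error 0.53, adjusted p = 0.0137, limma). The groups overlapped for this gene through *atfs-1(et15)* replicate 4 and wild-type replicate 2. *perm-2*, which encodes an eggshell permeability barrier protein, had 94.4, 23.9, 184, 238 and 108 normalized CPM in *atfs-1(et15)* worms, against 396, 200.1 and 436 in wild-type worms (log2 fold change -1.68, standard error 0.45, adjusted p = 0.00489, limma). *nos-2* (-1.65), a Nanos-related gene, and *perm-4* (-1.53) were also called lower. Of 12 germline markers, 6 were called lower and 0 higher (median -0.48), among them *gld-1*, a translational repressor of the meiotic germline, at -1.01 (adjusted p = 0.00284, limma) and the P granule gene *pgl-1* at -0.72 (adjusted p = 0.0015, limma). Their summed level was 1586, 1423, 2302, 1982 and 1983 normalized CPM in *atfs-1(et15)* worms, against 3020, 2371 and 3101 in wild-type worms. Without wild-type replicate 1 or 3, 3 of the germline markers were called lower. Of 81 sperm genes, 27 were called lower and 0 higher (median -0.44, background 16.37% lower), but 10 without wild-type replicate 1 and 13 without *atfs-1(et15)* replicate 3. Many sperm genes are near-identical copies, among which reads may be divided.

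**Figure D2:**
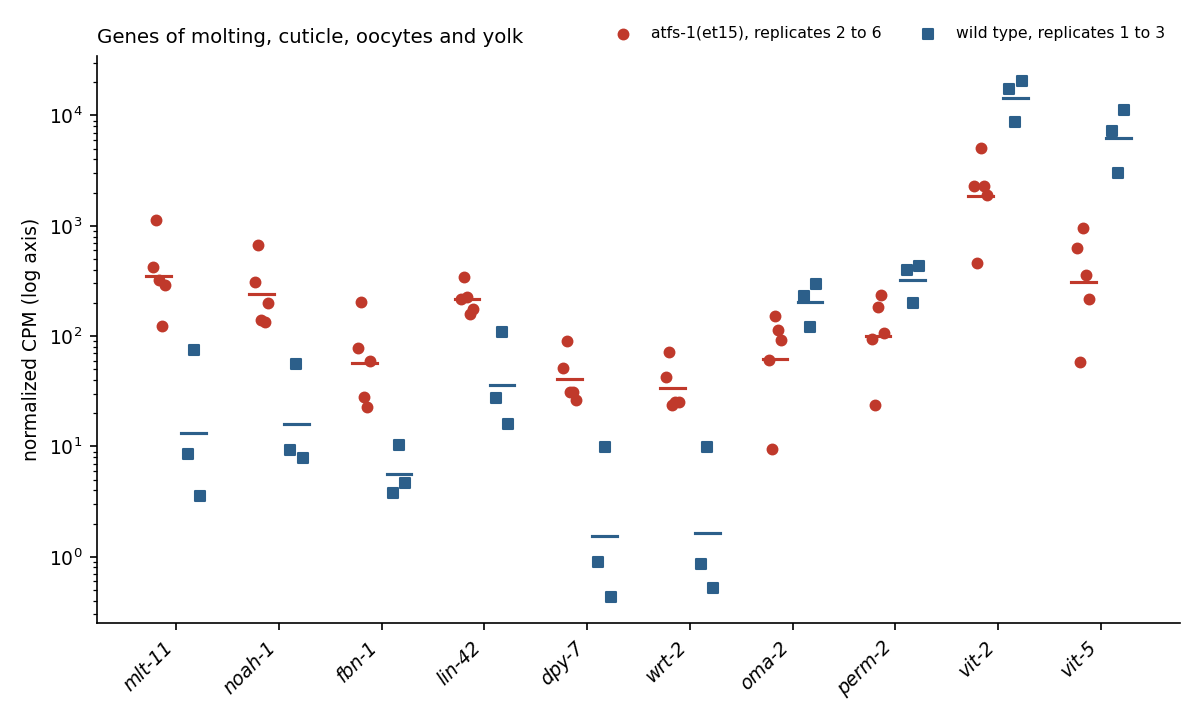
Normalized CPM on a log axis of 10 genes of molting, cuticle, oocytes and yolk in each of the 5 *atfs-1(et15)* libraries (red, left of each pair) and the 3 wild-type libraries (blue, right), with geometric means as bars. The molting and cuticle genes at the left are higher in every *atfs-1(et15)* library, the vitellogenin genes at the right are lower in every one, and in *mlt-11*, *dpy-7* and *wrt-2* wild-type replicate 2 sits between the other wild-type libraries and *atfs-1(et15)*.

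To divide the changes, the same fit was repeated with the molting score and the yolk score of each library as covariates, whose slopes come from the spread within the 11 groups of the study. The 21 genes of the 2 scores were left out. Of the 4584 called genes outside the 2 lists, 991 (21.6%, or 7.17% of all genes tested) were called in the same direction at equal scores, 3543 (77.3%) were not called and 50 were called in the opposite direction. Of the 2325 genes called higher, 641 (27.6%, or 4.64% of genes tested) were called higher in both fits, and of the 2259 called lower, 350 (15.5%, or 2.53% of genes tested) were called lower in both. In all, 1908 of 13816 genes were called at equal scores (13.8%), 1205 higher (8.72%) and 703 lower (5.09%), and 531 of those higher and 336 of those lower had not been called before. The share that was higher was 63.2%, and 54.7% when scaled by library size alone. The count was 1261 without wild-type replicate 2 and between 1283 and 1989 without any 1 of the other 7 libraries. The scores were measured in the same libraries and differ between the groups without overlap, so the fit extends the slopes beyond the wild-type range, and genotype and stage cannot be told apart for a gene that moves with both.

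**Figure D3:**
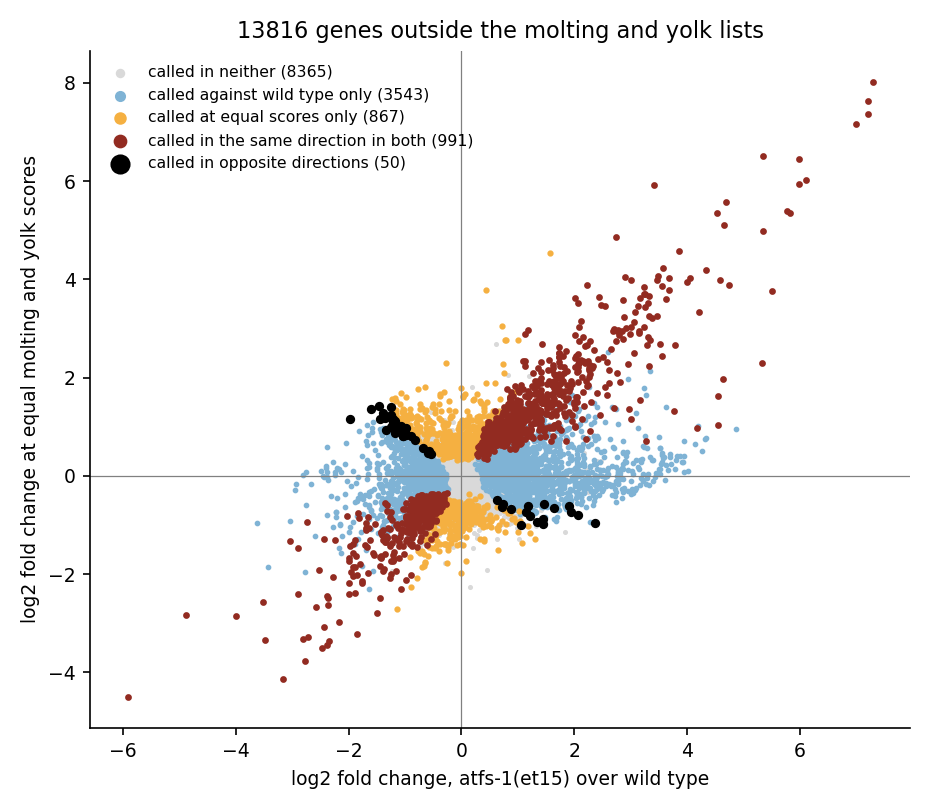
Each point is a gene outside the molting and yolk lists, with its log2 fold change of *atfs-1(et15)* over wild type on the horizontal axis and the same at equal molting and yolk scores on the vertical axis. Of the genes called against wild type, 991 keep their call and direction (dark red), 3543 are not called at equal scores (blue), and 50 turn round (black).

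A second division used libraries outside the comparison. The slope of each gene on the stage index was taken over the 9 wild-type libraries of batches 2 and 3, centred within batch, and multiplied by the difference of the index between *atfs-1(et15)* (mean -2.18) and wild-type worms of the same batch (mean -8.21). A gene was said to follow when observed and expected changes had the same sign and the expected was at least 0.5 of the observed. Of the 4584 called genes, 3078 (67.1%) followed, namely 1538 (66.2%) of those higher and 1540 (68.2%) of those lower. The rule set no upper limit on the expected change, and the share among genes not called was not computed. The slopes were also carried beyond the index range of the 9 libraries, and the 67.1% is a description only. Called in both fits and not following were 474 higher and 267 lower genes. The expected medians were 4.52 for the molting list against an observed 2.55, 1.52 for collagens against 1.30, 2.41 for hedgehog-related genes against 1.27, and -1.04 for sperm genes against -0.44. For yolk the signs matched but the observed change was the larger, with an expected median of -1.80 against an observed -3.79. The index itself holds the 6 vitellogenin and 15 molting genes, so the expected values of those 2 lists are not independent of it. For *vit-5* the expected log2 change was -1.94 and the observed -4.34. The oocyte and eggshell list had an expected median of -2.94 and an observed median of -1.15, and at equal scores 11 of its 20 genes were called higher and 0 lower (median 0.93, background 8.72% higher). With the molting score alone as covariate, 0 of the 20 were called in either direction (limma, 0 also at an unadjusted p under 0.05, median 0.27, background 8.09% higher and 5.56% lower). With the yolk score alone, 0 of the 20 were likewise called (limma, 3 higher at an unadjusted p under 0.05, median 0.60, background 8.66% called, 5.54% higher and 3.12% lower), so neither score alone gave the 11 calls. They also rest on single libraries, with 0 called higher without *atfs-1(et15)* replicate 4, 7 without wild-type replicate 3, and 6 when either *atfs-1(et15)* replicate 5 or wild-type replicate 1 was left out.

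Most cuticle genes lost their call. At equal scores, 10 of 134 collagens were called higher (5 without wild-type replicate 2) and 1 lower, with a median of 0.05, and 0 of 59 hedgehog-related genes were called higher and 3 lower, with a median of -0.15. Over all genes, 8.72% were called higher and 5.09% lower at equal scores, and neither list had a share above these. *dpy-7* had a log2 change of 0.65 (standard error 0.39, adjusted p = 0.281, limma), and *wrt-2* of 0.40 (standard error 0.29, adjusted p = 0.408, limma). *col-176* kept part of its difference, at 2.31 (standard error 0.55, adjusted p = 0.00358, limma). Of the *abu* and *pqn* genes, which encode glutamine- and asparagine-rich or prion-like secreted proteins and in part cycle with the pharyngeal cuticle, 11 of 62 were called higher and 8 lower in the first fit, shares near or below those over all genes (16.9% and 16.37%), and 2 higher and 1 lower at equal scores (the first fit gave 2 higher and 2 lower without wild-type replicate 3, 7 higher and 3 lower when wild-type replicate 1 was left out, and 5 lower without *atfs-1(et15)* replicate 3). *pqn-32* had 129.9, 222, 137, 103 and 96.7 normalized CPM in *atfs-1(et15)* worms, against 8.59, 77.6 and 2.84 in wild-type worms (log2 fold change 3.31, standard error 0.82, adjusted p = 0.00225, limma), and at equal scores its log2 fold change was 0.04. Neuropeptide genes also lost their calls, with 23 of 87 higher and 4 lower in the first fit and 0 higher and 1 lower at equal scores, and 9 were higher in the first fit without wild-type replicate 3. Those named were of the epidermal *nlp-29* cluster, whose peptides are antimicrobial, and *nlp-34* had log2 changes of 2.06 (adjusted p = 0.00155, limma) and, at equal scores, 0.08. At equal scores, 0 of 81 sperm genes were called higher and 1 lower, and 1 of 12 germline markers was higher and 0 lower (0 higher without any single library other than *atfs-1(et15)* replicate 6).

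Genes of the mitoUPR were among those called higher in both fits. Of 12 mitochondrial chaperone and protease genes, 6 were called higher and 0 lower (median 0.48), and at equal scores 9 were higher and 0 lower (median 0.86), while the wild-type slopes gave an expected median of -0.11. Over all genes, 16.9% were called higher in the first fit and 8.72% at equal scores. *hsp-6*, the mitochondrial Hsp70 chaperone and the usual reporter gene of the mitoUPR, had 1301, 1653, 1677, 1419 and 1271 normalized CPM in *atfs-1(et15)* worms, against 766, 627 and 787 in wild-type worms (log2 fold change 1.01, standard error 0.18, adjusted p = 4.72e-05, limma). At equal scores its log2 fold change was 1.5 (standard error 0.21, adjusted p = 1.63e-06, limma). *stl-1*, a stomatin-like gene of the inner membrane, had 93.6, 98.3, 109.96, 106 and 107 normalized CPM in *atfs-1(et15)* worms, against 50.4, 45.8 and 63.5 in wild-type worms (log2 fold change 0.96, standard error 0.17, adjusted p = 4.18e-05, limma), and 1.48 at equal scores. *dnj-10*, a mitochondrial DnaJ cochaperone, had 101, 105, 81.4, 104 and 116 normalized CPM in *atfs-1(et15)* worms, against 50.9, 50.6 and 61.6 in wild-type worms (log2 fold change 0.89, standard error 0.15, adjusted p = 1.92e-05, limma), and 1.12 at equal scores. None of these 3 genes overlapped between the groups. The prohibitin genes *phb-1* (0.61, adjusted p = 0.00762, limma) and *phb-2* (0.56, adjusted p = 0.0131, limma) and the inner membrane protease gene *ymel-1* (0.54, adjusted p = 0.00795, limma) were also higher, each by less than 2-fold. *spg-7*, *lonp-1* and *ppgn-1*, which encode other mitochondrial AAA-family proteases, were called higher only at equal scores, with log2 changes of 0.81, 0.67 and 0.72 there, and each of these calls was lost when scaled by library size alone, with the molting score as the only covariate, and without wild-type replicate 2. The *ppgn-1* call was also lost without *atfs-1(et15)* replicate 4, and the *lonp-1* call, kept under 10 of 22 alternatives, without wild-type replicate 1 or *atfs-1(et15)* replicate 5 or 6. *hsp-60*, the mitochondrial chaperonin, was an exception, with 642, 755, 779, 719.8 and 611 normalized CPM in *atfs-1(et15)* worms, against 870.4, 692 and 873 in wild-type worms, a log2 change of -0.21 (adjusted p = 0.438, limma) and 0.27 at equal scores. *clpp-1* and *hsp-75* were called in neither fit (0.20 and -0.28 in the first).

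The *atfs-1* transcript itself had 92.8, 108, 113, 89 and 86.3 normalized CPM in *atfs-1(et15)* worms, against 66.9, 64.1 and 79.9 in wild-type worms (log2 fold change 0.47, standard error 0.24, adjusted p = 0.128, limma). Every *atfs-1(et15)* library was above every wild-type library, the difference did not pass the threshold in the first fit, and at equal scores it was 1.23 (standard error 0.27, adjusted p = 0.00182, limma), a call that was lost with the molting score alone. Since *et15* is a point mutation, the transcript level does not check the genotype. Of the 11 regulators of the mitoUPR, the only other called genes were *jmjd-3.1*, a histone demethylase gene (0.81, adjusted p = 0.0417, limma), and the chromatin genes *lin-65* (-0.58, adjusted p = 0.00516, limma) and *met-2* (-0.57, adjusted p = 0.0183, limma), and none of these 3 was called at equal scores. The first fit thus called 1 of the 11 higher and 2 lower, shares below and near the 16.9% and 16.37% over all genes. The *jmjd-3.1* call was kept under 12 of 22 alternatives, that of *met-2* under 15 and that of *lin-65* under 20.

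Of 15 mitochondrial import genes 13 were in the filtered table, and 4 of them were called higher and 0 lower, and the same 4 were called at equal scores (2 in either fit without wild-type replicate 2). The background was 16.9% higher, and 8.72% at equal scores. *timm-17B.2*, 1 of the genes for the Tim17 subunit of the inner membrane translocase, had 16.9, 17, 21.2, 24.2 and 17.5 normalized CPM in *atfs-1(et15)* worms, against 6.182, 6.53 and 5.81 in wild-type worms (log2 fold change 1.56, standard error 0.20, adjusted p = 1.4e-07, limma), and at equal scores 1.92. Its other copy, *timm-17B.1*, had a log2 change of 0.51 and *timm-23* of 0.84, both called. Most of the respiratory machinery was not called. Of 70 mitochondrial ribosome genes 3 were higher and 1 lower (median -0.02), of 49 nuclear respiratory chain genes 4 were higher and 3 lower (median 0.00), and of 12 respiratory genes of the mitochondrial genome 1 was higher (median 0.13), all shares below the background. *gas-1*, a complex I subunit gene, had 249.5, 254, 282, 288 and 210.0 normalized CPM in *atfs-1(et15)* worms, against 171, 167 and 160.1 in wild-type worms (log2 fold change 0.62, standard error 0.13, adjusted p = 0.000599, limma). *mrps-5*, a small-subunit ribosomal gene, had a log2 change of 0.40 (adjusted p = 0.000863, limma), and *cox-15*, a heme a synthase gene, of 0.47 (adjusted p = 0.0226, limma). All 3 were also called higher at equal scores.

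Some glycolysis genes were called higher and none lower in both fits. Of 19 genes, 7 were called higher and 0 lower (median 0.25, with 6 of the 19 fold changes negative, background 16.9% higher), and at equal scores 14 were higher and 0 lower (median 0.64, expected from wild-type slopes -0.21, background 8.72% higher). *aldo-1*, a fructose-bisphosphate aldolase gene, had 697, 698, 937, 1004 and 669 normalized CPM in *atfs-1(et15)* worms, against 208, 191 and 177.7 in wild-type worms (log2 fold change 2.04, standard error 0.18, adjusted p = 8.5e-11, limma), and 2.45 at equal scores. *gpd-2*, a glyceraldehyde-3-phosphate dehydrogenase gene, had 574, 697, 712, 740.0 and 526 normalized CPM in *atfs-1(et15)* worms, against 364, 282 and 355 in wild-type worms (log2 fold change 0.96, standard error 0.14, adjusted p = 3.48e-06, limma), and 1.29 at equal scores. Neither gene overlapped between the groups. *ldh-1*, lactate dehydrogenase, had 179.8, 158, 305, 279 and 188 normalized CPM in *atfs-1(et15)* worms, against 96.4, 75.7 and 95.7 in wild-type worms (log2 fold change 1.27, standard error 0.25, adjusted p = 0.000178, limma), and 2.09 at equal scores. *ipgm-1*, the cofactor-independent phosphoglycerate mutase gene, had a log2 change of 0.89 (adjusted p = 2.93e-07, limma). The count at equal scores was 9 without wild-type replicate 2.

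Of 23 genes of the citric acid cycle and glyoxylate cycle, 4 were called higher and 5 lower, shares near those over all genes (16.9% and 16.37%), with 2 higher without wild-type replicate 1, wild-type replicate 3 or *atfs-1(et15)* replicate 3. *icl-1*, the bifunctional glyoxylate cycle gene, was higher (log2 fold change 0.84, adjusted p = 0.0223, limma) and *idh-1*, a NADP-dependent isocitrate dehydrogenase gene, was lower (-0.90, adjusted p = 0.00587, limma), and neither was called at equal scores. Fatty acid metabolism held the largest of the falls named here. *acdh-2*, a short-chain acyl-CoA dehydrogenase gene, had 0.71, 1.04, 0.214, 0.0988 and 0.0468 normalized CPM in *atfs-1(et15)* worms, against 44.6, 45.5 and 64.4 in wild-type worms (log2 fold change -5.92, standard error 0.62, adjusted p = 3.01e-09, limma), and -4.50 at equal scores (adjusted p = 0.000157, limma). *fat-7*, a stearoyl-CoA desaturase gene, had 11.8, 16.6, 16.23, 8.43 and 6.70 normalized CPM in *atfs-1(et15)* worms, against 142, 79.3 and 59.2 in wild-type worms (log2 fold change -2.90, standard error 0.42, adjusted p = 2.47e-06, limma), and -2.41 at equal scores (adjusted p = 0.00397, limma). The groups were far apart for both, with *acdh-2* at or below 1.04 normalized CPM in every *atfs-1(et15)* library. *acs-2*, an acyl-CoA synthetase gene of fatty acid oxidation, had 22.7, 8.35, 6.21, 9.15 and 8.87 normalized CPM in *atfs-1(et15)* worms, against 44.5, 73.3 and 28.3 in wild-type worms (log2 fold change -2.13, standard error 0.44, adjusted p = 0.000424, limma), and was not called at equal scores (-1.58). *acdh-6* was higher (3.77, adjusted p = 2.74e-06, limma), as was *fat-5*, a palmitoyl-CoA desaturase gene (1.48, adjusted p = 0.00502, limma). Over the 61 fatty acid oxidation genes, 14 were called higher and 6 lower, and over the 18 of fatty acid synthesis, desaturation and elongation, 2 higher and 3 lower (background 16.9% higher and 16.37% lower).

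**Figure D4:**
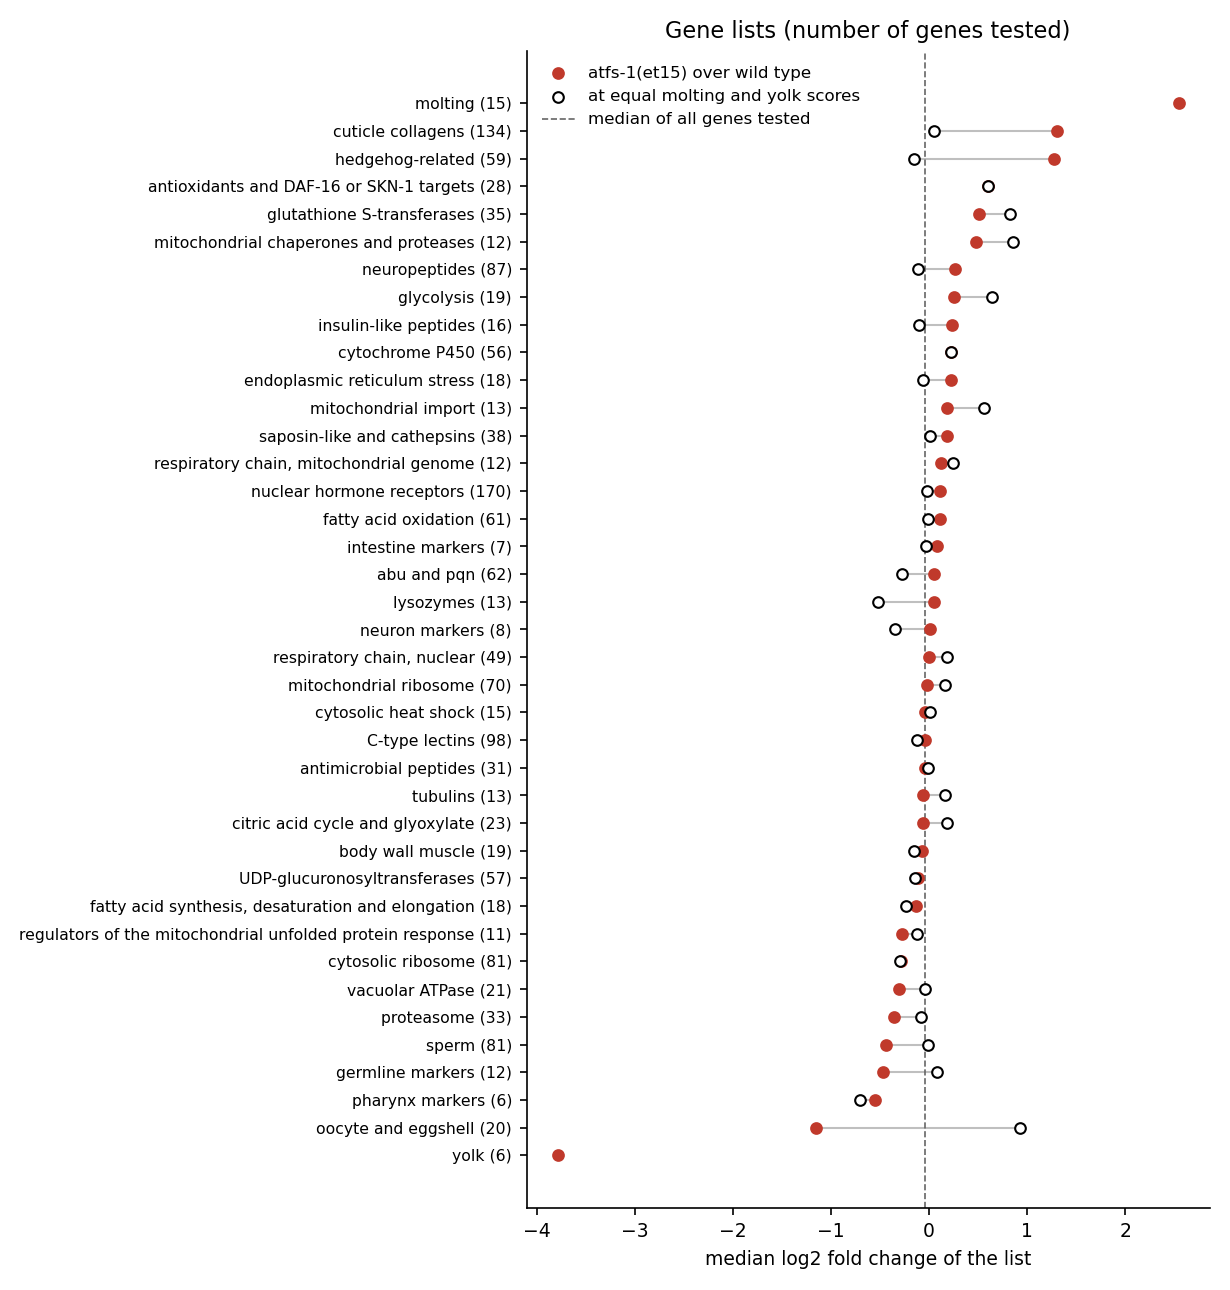
Median log2 fold change of each gene list in *atfs-1(et15)* over wild type (red) and at equal molting and yolk scores (open circles), with the number of genes tested in brackets and the median of all genes tested as a dashed line. Collagens and hedgehog-related genes return to near 0 at equal scores (0.05 and -0.15), oocyte and eggshell genes cross from -1.15 to 0.93, and mitochondrial chaperones, import, glycolysis and glutathione S-transferases keep or raise their median.

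Among genes of detoxification and antioxidant defence, higher calls outnumbered lower calls. Of 29 antioxidant genes and targets of DAF-16 or SKN-1, 28 were in the filtered table, of which 13 were called higher and 2 lower (median 0.60), and at equal scores 12 and 2 (median 0.60), or 6 higher without wild-type replicate 2. Over all genes the shares were 16.9% higher and 16.37% lower, and 8.72% and 5.09% at equal scores. Of a list of 18 RT-PCR genes of the study, its reference gene *act-3* among them, 17 were in the filtered table. 8 of these were called higher and 2 lower, and 10 higher and 0 lower at equal scores. This list was put together from the study's genes with earlier results known, so its count is not independent evidence. *sod-3*, a mitochondrial superoxide dismutase gene, had 19.6, 15.1, 15.6, 21.5 and 14.4 normalized CPM in *atfs-1(et15)* worms, against 3.03, 2.53 and 3.97 in wild-type worms (log2 fold change 2.27, standard error 0.25, adjusted p = 8.27e-09, limma), and 2.74 at equal scores. *mtl-1*, a metallothionein gene, had 15.6, 12.18, 4.99, 16.3 and 9.34 normalized CPM in *atfs-1(et15)* worms, against 0.149, 0.517 and 0.336 in wild-type worms (log2 fold change 3.79, standard error 0.74, adjusted p = 0.000191, limma). At equal scores *mtl-1* had a log2 change of 2.67 (adjusted p = 0.0304, limma), which was not called under 12 of 22 alternatives. *sodh-1*, which the paper lists with *mtl-1* and *sod-3* as a DAF-16 target, went the other way and was called lower in the first fit. Its log2 change was -2.17 to -1.22 across the alternatives, the call was kept under 19 of 22, and it was not called at equal scores. *cdr-2*, a cadmium-responsive glutathione S-transferase-like gene, had 236, 218, 244, 191 and 188 normalized CPM in *atfs-1(et15)* worms, against 20.2, 19.8 and 13.6 in wild-type worms (log2 fold change 3.57, standard error 0.34, adjusted p = 3.39e-10, limma), and 4.23 at equal scores. *nhr-57*, a nuclear receptor gene known as a hypoxia target of HIF-1, had 7.99, 5.82, 9.74, 11.6 and 10.3 normalized CPM in *atfs-1(et15)* worms, against 3.24, 3.87 and 2.81 in wild-type worms (log2 fold change 1.31, standard error 0.23, adjusted p = 4.58e-05, limma). Genes of other stress responses gave a different picture. *gst-4*, a target of SKN-1, was called only at equal scores (0.68 in the first fit, 1.56 at equal scores). *hsp-16.2*, a cytosolic small heat shock protein gene, had 227, 737, 17.9, 9.35 and 8.05 normalized CPM in *atfs-1(et15)* worms, against 6.84, 3.81 and 20.1 in wild-type worms (log2 fold change 2.48, adjusted p = 0.292, limma), with 2 *atfs-1(et15)* libraries, replicates 2 and 3, far above the other 6 libraries. *hsp-4*, the endoplasmic reticulum chaperone BiP, was likewise highest in replicates 2 and 3, with 1249, 2145, 458, 363 and 376 normalized CPM in *atfs-1(et15)* worms, against 398, 499.6 and 739.9 in wild-type worms (adjusted p = 0.601, limma). Of 15 cytosolic heat shock genes in the filtered table (of 19) 0 were called higher and 1 lower with limma, 1 and 1 with edgeR, and 4 and 2 with DESeq2. Of 18 endoplasmic reticulum stress genes 2 were higher and 0 lower, shares below the 16.9% and 16.37% over all genes.

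Of the catalase genes, *ctl-1* was lower and *ctl-2* and *ctl-3* were higher. *ctl-1*, cytosolic catalase, had 0 reads in all 5 *atfs-1(et15)* libraries, against 2.05, 1.80 and 1.47 normalized CPM in wild-type worms, which is at least 94.4-fold lower when 3 reads over the 165591601 reads of the group are taken as the limit that a count of 0 allows. In *atfs-1(et17)* worms, which carry another gain-of-function allele, *ctl-1* was present at 2.62 ± 0.764 normalized CPM (SD, n = 6). Its neighbors *ctl-2* and *ctl-3* on chromosome II are near-identical copies in a tandem array from 14299556 to 14310779 of WBcel235, so reads may be split among the 3, and whether the *atfs-1(et15)* strain differs in sequence at this locus was not tested. *ctl-2* had 100.3, 107, 103, 137 and 101 normalized CPM in *atfs-1(et15)* worms, against 66.4, 75.5 and 54.3 in wild-type worms (log2 fold change 0.75, standard error 0.26, adjusted p = 0.0258, limma), and *ctl-3* had 9.15, 9.01, 9.34, 7.90 and 7.21 normalized CPM in *atfs-1(et15)* worms, against 4.67, 5.04 and 4.07 in wild-type worms (log2 fold change 0.82, standard error 0.23, adjusted p = 0.00601, limma). These 2 genes fall outside the naming rule and were chosen after their values were seen.

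Drug-metabolizing families changed in both directions. Of 35 glutathione S-transferase genes, 11 were higher and 1 lower (median 0.51), and at equal scores 12 and 1 (median 0.82). The counts of higher genes were 6 in the first fit without wild-type replicate 3 and 5 at equal scores without wild-type replicate 2. *gst-13* had 95.2, 87.9, 92.1, 96.8 and 72.2 normalized CPM in *atfs-1(et15)* worms, against 32.3, 32.8 and 26.5 in wild-type worms (log2 fold change 1.52, standard error 0.24, adjusted p = 1.24e-05, limma). Of 56 cytochrome P450 genes, 21 were higher and 4 lower (12 and 1 without wild-type replicate 3, and 2 lower without wild-type replicate 1), and at equal scores 12 and 6. The background was 16.9% higher and 16.37% lower, and 8.72% and 5.09% at equal scores. *cyp-14A4* had 30.3, 22.4, 24.6, 15.2 and 16.7 normalized CPM in *atfs-1(et15)* worms, against 0.565, 0.49 and 0.275 in wild-type worms (log2 fold change 4.54, standard error 0.46, adjusted p = 1.08e-09, limma), and 5.36 at equal scores. *cyp-33C8* had 95.4, 76.1, 68.2, 76.5 and 78.6 normalized CPM in *atfs-1(et15)* worms, against 7.67, 5.47 and 4.37 in wild-type worms (log2 fold change 3.67, standard error 0.34, adjusted p = 1.34e-10, limma), and 4.02 at equal scores. Both P450 genes were separated from wild type in every library. Of 57 UDP-glucuronosyltransferase genes, 13 were higher and 10 lower, near the background (5 lower without wild-type replicate 3), and at equal scores 8 and 7. *ugt-62* (2.55) and *ugt-19* (3.25) were among the higher, and *ugt-26* was lower, with 21.9, 22.1, 22, 24.3 and 23.6 normalized CPM in *atfs-1(et15)* worms, against 119.03, 116 and 128 in wild-type worms (log2 fold change -2.38, standard error 0.31, adjusted p = 3.07e-07, limma). All 3 were also called at equal scores.

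Families of innate immunity and digestion held genes called in each direction. Of 98 C-type lectin genes, 19 were higher and 17 lower, near the 16.9% and 16.37% of all genes (11 higher without wild-type replicate 3, 10 lower without wild-type replicate 1), and at equal scores 17 and 10 (5 lower without wild-type replicate 2). *clec-17* had 12.9, 11.1, 18.9, 26.2 and 25.9 normalized CPM in *atfs-1(et15)* worms, against 0.208, 0.436 and 0 in wild-type worms (log2 fold change 4.74, standard error 0.37, adjusted p = 2.22e-12, limma), and 3.89 at equal scores, whereas *clec-47* had 5.52, 8.03, 10.3, 12.8 and 10.9 normalized CPM in *atfs-1(et15)* worms, against 85.5, 61.0 and 49.0 in wild-type worms (log2 fold change -2.73, standard error 0.32, adjusted p = 3.27e-08, limma), and -3.28 at equal scores. *clec-180* was higher in the first fit (3.95) and had 0.08 at equal scores. Of 13 lysozyme genes, 5 were higher and 5 lower (3 higher without wild-type replicate 3). *lys-2* had 233, 229, 380.3, 405 and 307 normalized CPM in *atfs-1(et15)* worms, against 96.2, 84.4 and 40.6 in wild-type worms (log2 fold change 2.12, standard error 0.36, adjusted p = 3e-05, limma), while *lys-4* had 25.9, 20.4, 48.7, 68.7 and 55.7 normalized CPM in *atfs-1(et15)* worms, against 311, 383 and 91.9 in wild-type worms (log2 fold change -2.47, standard error 0.45, adjusted p = 9.24e-05, limma), and at equal scores their log2 fold changes were 2.36 and -3.51. The aspartyl protease gene *asp-8* had 151, 192, 183, 144 and 98.3 normalized CPM in *atfs-1(et15)* worms, against 17.1, 16.44 and 7.95 in wild-type worms (log2 fold change 3.46, standard error 0.34, adjusted p = 5.13e-10, limma), and 3.99 at equal scores, and the cathepsin B-like gene *cpr-1* was lower in both fits (-1.76 and -2.18). Of 31 antimicrobial peptide genes, 12 were higher and 6 lower, and 3 and 2 at equal scores, where the shares over all genes were 8.72% higher and 5.09% lower. The lower ones numbered 2 without wild-type replicate 1, 3 without wild-type replicate 3 and 11 without *atfs-1(et15)* replicate 5. The caenacin gene *cnc-4* had 101, 166, 38.8, 33.3 and 22.3 normalized CPM in *atfs-1(et15)* worms, against 1.43, 5.04 and 7.73 in wild-type worms (log2 fold change 3.63, standard error 0.81, adjusted p = 0.000831, limma), and was not called at equal scores (1.41).

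Among regulators, 50 of 170 nuclear hormone receptor genes were higher and 14 lower (31 higher without wild-type replicate 1 or 3), and at equal scores 19 and 14 (4 lower without wild-type replicate 2, 6 without *atfs-1(et15)* replicate 4). Over all genes tested the shares were 16.9% higher and 16.37% lower, and 8.72% and 5.09% at equal scores. The share of lower calls in the first fit was thus below that over all genes. *nhr-114* had 11.2, 11.7, 29.9, 35.6 and 31.9 normalized CPM in *atfs-1(et15)* worms, against 156, 116 and 122 in wild-type worms (log2 fold change -2.57, standard error 0.48, adjusted p = 0.000127, limma), and -2.66 at equal scores. *nhr-104* had 30.4, 38.1, 25.2, 26.3 and 30.3 normalized CPM in *atfs-1(et15)* worms, against 5.85, 8.08 and 7.0 in wild-type worms (log2 fold change 2.03, standard error 0.17, adjusted p = 6.81e-12, limma), and 1.60 at equal scores. Of 16 insulin-like peptide genes, 2 were higher and 1 lower, shares below those over all genes. *ins-35* had 5.76, 7.74, 6.06, 6.72 and 5.46 normalized CPM in *atfs-1(et15)* worms, against 0.119, 0.463 and 0.0306 in wild-type worms (log2 fold change 3.32, standard error 0.37, adjusted p = 9.89e-09, limma), and 2.24 at equal scores. *tbb-6*, a beta-tubulin gene known to respond to mitochondrial stress, had 87.9, 89.1, 25, 29.9 and 34.4 normalized CPM in *atfs-1(et15)* worms, against 3.36, 4.41 and 4.52 in wild-type worms (log2 fold change 3.34, standard error 0.73, adjusted p = 0.000742, limma), highest in replicates 2 and 3, and was not called at equal scores (2.13, adjusted p = 0.157, limma).

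Proteasome genes were called lower by small amounts. Of 33 proteasome genes, 20 were called lower and 0 higher, with a median of -0.35 (background 16.37% lower), and at equal scores 0 were called (limma, 0 also at an unadjusted p under 0.05, median -0.08). Of 81 cytosolic ribosome genes, 12 were lower and 0 higher, a share of lower calls below that over all genes. Their median was -0.29 in the first fit and -0.30 at equal scores, where 0 were called (limma, 9 lower at an unadjusted p under 0.05), against 0.35 expected from the wild-type slopes. The proteasome count was 7 without wild-type replicate 3, 9 without wild-type replicate 1, 11 without *atfs-1(et15)* replicate 6 and 12 without *atfs-1(et15)* replicate 2. The ribosome count was 38 without *atfs-1(et15)* replicate 5, 20 without *atfs-1(et15)* replicate 4, 4 without *atfs-1(et15)* replicate 3, and 2 without *atfs-1(et15)* replicate 2 or 6 or wild-type replicate 1 or 3. *rpt-1*, a proteasome ATPase gene, had 163, 168, 179, 169 and 153 normalized CPM in *atfs-1(et15)* worms, against 248, 211 and 258 in wild-type worms (log2 fold change -0.52, standard error 0.10, adjusted p = 0.000179, limma). Scaled by library size alone, the medians of proteasome and ribosome were -0.24 and -0.18. Markers of neurons and body wall muscle mostly were not called, while pharynx markers were lower. Of 7 intestine markers in the filtered table (of 8) 2 were higher and 0 lower, of 8 neuron markers 0 were called (limma, edgeR and DESeq2, 1 lower at an unadjusted p under 0.05 in each), of 19 body wall muscle genes 1 was lower, and of 6 pharynx markers (of 7) 3 were lower. The background was 16.9% higher and 16.37% lower. All 6 pharynx markers had negative fold changes, with a median of -0.55 in the first fit. At equal scores their median was -0.70, with 1 called lower. The summed intestine markers ranged from 3696 to 5785 normalized CPM in *atfs-1(et15)* and from 4147 to 5478 in wild-type worms, and the summed muscle genes from 20894 to 27689 in *atfs-1(et15)* and from 22703 to 25405 in wild-type worms. The summed pharynx markers ranged from 749.0 to 1049 normalized CPM in *atfs-1(et15)* and from 1172 to 1301 in wild-type worms. The part of these tissue levels in the gene group results was not tested.

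None of the 10 largest rises was a molting gene, while 3 of the 10 largest falls were vitellogenin genes. 34 genes were called at least 16-fold higher than wild type and 5 at least 16-fold lower. The 10 largest rises among genes whose groups did not overlap had log2 changes of 5.51 to 7.29, and 7 of these 10 were also among the 10 largest rises at equal scores. *C07G1.7* (chromosome IV, 8210906 to 8211847, WBcel235) had 85.2, 84.5, 116, 93.4 and 80.9 normalized CPM in *atfs-1(et15)* worms, against 0.0594, 0.109 and 0.0917 in wild-type worms (log2 fold change 7.29, standard error 0.27, adjusted p = 2.87e-22, limma), and 8.03 at equal scores. *C38D9.2* (chromosome V, 17567150 to 17571742) had 122, 119.7, 186, 185 and 170.2 normalized CPM in *atfs-1(et15)* worms, against 0.565, 0.599 and 0.459 in wild-type worms (log2 fold change 7.21, standard error 0.27, adjusted p = 6.36e-22, limma), and 7.62 at equal scores. *F15D4.5* (chromosome II, 13245376 to 13247774) had 169.8, 173, 207, 235.3 and 226 normalized CPM in *atfs-1(et15)* worms, against 1.19, 1.36 and 0.734 in wild-type worms (log2 fold change 7.0, standard error 0.23, adjusted p = 1.12e-23, limma), and 7.15 at equal scores. These 3 genes were at or below 1.36 normalized CPM in every wild-type library and at or above 80.9 in every *atfs-1(et15)* library. *F22B3.7* had 0 reads in all 3 wild-type libraries, against 8.83, 9.47, 17, 13.9 and 14.7 normalized CPM in *atfs-1(et15)* worms, at least 472-fold higher with 3 reads over the 106971604 reads of the wild-type group as the limit. *B0205.13* and *B0205.14*, neighbors on chromosome I between 10726088 and 10728808, were both higher, with *B0205.13* at 215, 257, 126, 118 and 90 normalized CPM in *atfs-1(et15)* worms, against 2.08, 2.45 and 2.17 in wild-type worms (log2 fold change 5.78, standard error 0.49, adjusted p = 1.3e-11, limma). *C07G1.7* lies within the span of *svh-1*, and *svh-1* was also higher (2.55, adjusted p = 1.16e-10, limma).

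The largest falls by the same rule, outside yolk, were *acdh-2*, *T13F3.6* (-4.89), *C09B8.4* (-4.0), *col-135*, *C30G12.2* (-3.52), *asm-2* (-3.49) and *dhs-26* (-3.44). *asm-2*, an acid sphingomyelinase gene, had 1.21, 1.73, 1.36, 1.19 and 0.983 normalized CPM in *atfs-1(et15)* worms, against 17.6, 16.50 and 25.1 in wild-type worms (log2 fold change -3.49, standard error 0.21, adjusted p = 9.98e-16, limma), and -3.33 at equal scores. *C30G12.2* had 24.5, 27.9, 27.8, 26.3 and 21.5 normalized CPM in *atfs-1(et15)* worms, against 311, 282 and 299 in wild-type worms (log2 fold change -3.52, standard error 0.41, adjusted p = 3.69e-08, limma), and -2.56 at equal scores. Both were tight within each group. At equal scores the largest falls also held *F21C10.9* (-4.14), the poly(ADP-ribose) glycohydrolase gene *parg-2* (-3.76) and the P-glycoprotein gene *pgp-6* (-3.32). *parg-2* had 0.473, 0.547, 0.82, 0.856 and 1.22 normalized CPM in *atfs-1(et15)* worms, against 8.95, 7.08 and 8.44 in wild-type worms (log2 fold change -2.78, standard error 0.40, adjusted p = 1.74e-06, limma). *col-135* and *dhs-26* were not called at equal scores (-0.96 and -1.86). Some of the named genes share exon sequence with a neighbor, among them *T13F3.6* with *T13F3.8*, *fbn-1* with *upp-1* and *nos-2* with *him-14* on opposite strands and *gpd-2* with *mai-1* and *acdh-2* with *ins-13* on the same strand. Reads there may be divided or, if strand was not used in counting, shared.

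**Figure D5:**
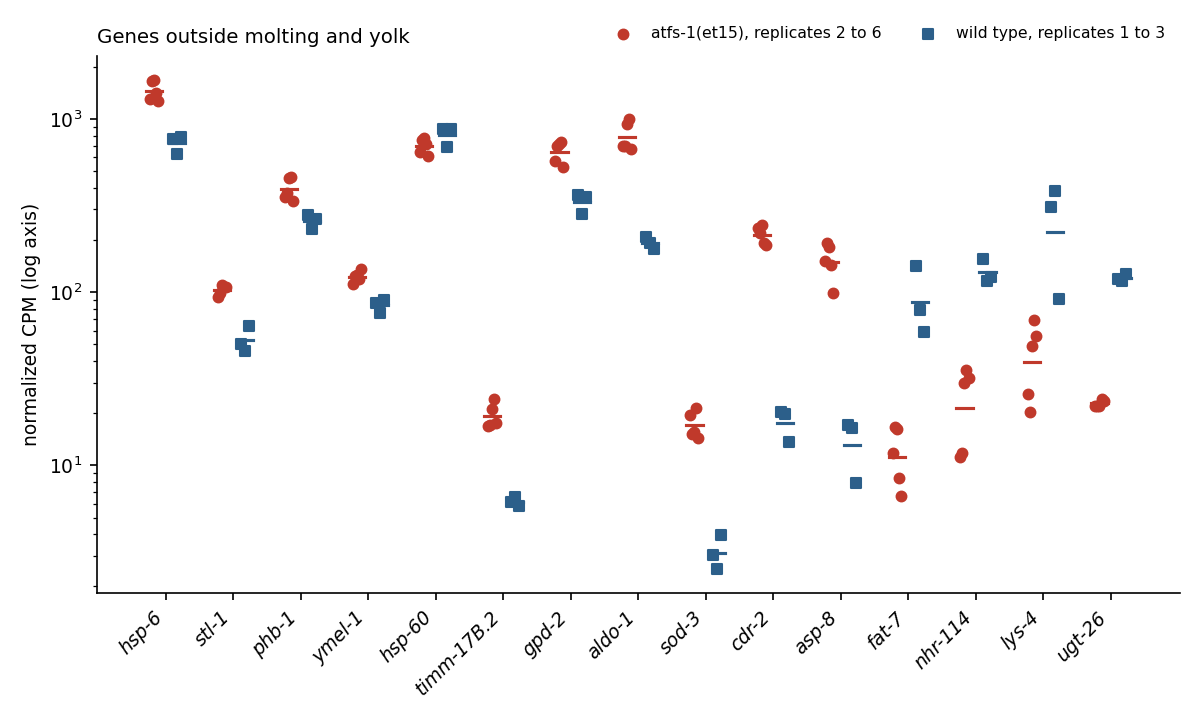
Normalized CPM on a log axis of 15 genes outside molting and yolk in each *atfs-1(et15)* library (red, left of each pair) and each wild-type library (blue, right), with geometric means as bars. *hsp-6*, *aldo-1*, *cdr-2* and *asp-8* are higher and *fat-7*, *nhr-114*, *lys-4* and *ugt-26* are lower in every *atfs-1(et15)* library, while *hsp-60* overlaps between the groups.

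The second gain-of-function allele, *atfs-1(et17)*, also a point mutation that affects the mitochondrial targeting sequence, was sequenced in the same batch with 6 libraries. The direct difference between the alleles uses no wild-type library. 1581 genes (11.4%) were called, 871 higher in *atfs-1(et15)* (6.29%) and 710 lower (5.13%). The share that was higher was 55.1%, and 48.1% when scaled by library size alone. The count depended on single libraries, and was 496 without *atfs-1(et15)* replicate 3, 694 without *atfs-1(et15)* replicate 2, 730 without *atfs-1(et17)* replicate 4, 918 without *atfs-1(et17)* replicate 5 and 975 without *atfs-1(et17)* replicate 2. Molting and yolk scores differed between the alleles as well, with a stage index of -4.0 to 0.80 in *atfs-1(et15)* and -8.0 to -5.32 in *atfs-1(et17)*. Of the 15 molting genes 5 were higher in *atfs-1(et15)*, all 6 vitellogenin genes were lower, and 11 of 20 oocyte and eggshell genes were lower, whereas 0 of the 12 mitochondrial chaperone and protease genes were called (limma, 1 higher at an unadjusted p under 0.05). These counts stand against a background of 6.29% higher and 5.13% lower. *hsp-6* differed by -0.03 on the log2 scale (adjusted p = 0.918, limma), with a mean level in *atfs-1(et15)* of 1464 ± 192 normalized CPM (SD, n = 5), while *atfs-1(et17)* had 1489.9 ± 179.5 (SD, n = 6). *sod-3* differed by 0.78 (adjusted p = 0.0138, limma) and *aldo-1* by 0.47 (adjusted p = 0.0414, limma).

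6 genes were at least 16-fold above both *atfs-1(et17)* and wild-type worms in *atfs-1(et15)*. 3 of them, *ZC15.4*, *ZC15.3* and *ZC15.1*, are adjacent among the genes tested on chromosome V, between 20302135 and 20308919. 2 others, *F41G4.5* and *F41G4.7*, are adjacent among the genes tested on chromosome X, between 16829493 and 16836404. The mean level of *ZC15.1* in *atfs-1(et15)* worms was 66.7 ± 16.8 normalized CPM (SD, n = 5), while *atfs-1(et17)* worms had 0.456 ± 0.12 (SD, n = 6) and the wild type had 0.658 ± 0.172 (SD, n = 3). *F41G4.7* had 163 ± 32.4, 3.51 ± 0.443 and 1.83 ± 0.0954 normalized CPM in the same groups. *ZC15.10*, which begins at 20310736, was higher in *atfs-1(et15)* than in wild type by 3.68 (adjusted p = 3.77e-17, limma), and *Y113G7C.1* beyond it was not called (-0.13, adjusted p = 0.673, limma). *F59C6.18*, the remaining gene, had 53.9, 87.7, 42.7, 37 and 28.3 normalized CPM in *atfs-1(et15)* worms, against 0.149, 1.2 and 0.489 in wild-type worms (log2 fold change 5.51, standard error 0.41, adjusted p = 4.49e-13, limma), and 3.77 at equal scores. *F41G4.5*, *ZC15.10*, *Y113G7C.1*, *B0205.14* and *svh-1* were named after their values were seen.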

How the data were processed

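RNA of whole worms was sequenced by the authors as stranded single-end libraries in 3 batches. They aligned reads with STAR 2.5.2b to WBcel235 with Ensembl annotation, counted reads per gene, and filtered and normalized with edgeR 3.20.1. Whether the counting used strand is not given in the sources used here, nor is the filter. The authors deposited 2 tables, a raw table in CPM and a filtered table of normalized CPM, whose values are a signal on an effective library size (0 columns were left unused). The CPM of the raw table were whole reads for 100% of values (tolerance 0.01 reads). It held 46739 genes, 13837 of which passed the filter, and 13760 of these had a position in the WBcel235 annotation. Depths were 30045912 to 36403473 reads per library compared.

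log2(normalized CPM + 0.5) was fitted with limma 3.58.1 (R 4.3.3, trend, empirical Bayes), with 1 mean for each of the 11 genotype-and-batch groups over 43 libraries. Adjusted p-values are Benjamini-Hochberg over all genes tested, with a call at 0.05. Fold changes on this scale understate the change of low genes. A second fit added the molting and yolk scores as covariates, without the 21 genes of the scores. Scripts used Python 3.11.15 and were tested on simulated data. Samples were separate biological replicates per the study, with RNA isolated independently.

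Members and gene lists were chosen with earlier results of these data known, and families were matched by symbol among the genes tested. Named genes were those of the molting, yolk, mitochondrial chaperone and RT-PCR lists, the 10 largest rises and 10 largest falls of called genes without overlap that averaged 1 normalized CPM or more in either group, the same among genes called in both fits, and up to 4 called members with the largest change in each other list.

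Alternatives were other pseudocounts, library size only, other filters, an additive fit, the 8 libraries or batch 1 only, edgeR 4.0.16 and DESeq2 1.42.0 on the recovered reads, a replicate block, other thresholds, other scores and leaving out each replicate. Fits with 1 score and fits without the 3 *atfs-1* libraries of batch 3 were added after seeing the data. These 3 deviated from their group mean as replicates 1 to 3 of the *atfs-1* deletion in batch 1 did (correlation 0.80, 0.58 and 0.75 across genes). They enter the shared spread, the slopes of the scores at equal scores, and the additive fit. Without them 4346 genes were called against wild type, 1774 at equal scores and 930 the same way in both. Promoter sequences were not used here.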

Additional observations from a re-analysis of the deposited data

Results flagged for a closer look

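In 6 of the 190 named genes, 1 *atfs-1(et15)* library lay far from the other 4. Chance alone flags about 1 in 20 groups. Replicate 3 was the high library in 5 of them. *noah-2* had 496.5 normalized CPM in replicate 3, against 135 to 236 in the other 4. *col-176* had 382.9, against 80.5 to 161, and *mlt-10* had 180.0, against 108 to 120. *pqn-13* had 49.4, against 22.6 to 30.3, and *cnc-3* had 16.9, against 7.63 to 10.2. For *acs-2*, replicate 2 was high, at 22.7 normalized CPM, against 6.21 to 9.15 in the other 4. Replicate 3 was also the library with the highest molting score.

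The alleles *atfs-1(et15)* and *atfs-1(et17)* differed in 1581 genes by the direct test between them (limma). Of 13804 genes of the raw table that the authors' filter had left out and that had a read in any library, 545 were called higher in *atfs-1(et15)* than in wild-type worms and 354 lower. The fit was limma on log2 of CPM + 0.5, with the CPM scaled by the normalization factor of each library. Both shares were below the 16.9% and 16.37% of the filtered genes.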

How the results depend on the processing

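No named gene that was called in a fit reversed its direction under any alternative of that fit, and genes not called were not checked for this. Between the 2 fits *elo-4*, a gene of the fatty acid elongation list, did change direction. Across the alternatives its log2 change was 0.84 to 1.55 against wild type, where it was called higher, and -0.77 to -0.15 at equal scores, where it was called lower. Of the 4602 genes called against wild type, 2605 passed an adjusted p under 0.01 and 1720 changed at least 2-fold, 2927 were called with the 8 libraries alone, and leaving out 1 replicate gave 2344 (without wild-type replicate 3) to 5299 (without wild-type replicate 2), with 2763 without wild-type replicate 1. The other alternatives gave 3468 to 6341. At equal scores the 1908 calls became 930 at an adjusted p under 0.01, 799 at 2-fold, 1197 with the yolk score alone, and 1261 (without wild-type replicate 2) to 1989 without 1 replicate. The 991 genes called the same way in both fits became 575 at an adjusted p under 0.01 and 436 at 2-fold. The 1581 genes that differed between the alleles ranged from 496 (without *atfs-1(et15)* replicate 3) to 2152 without 1 replicate. The median of the intestine markers was 0.19 with library size only, against 0.08. The causes of these shifts were not tested, other than that stricter thresholds and fewer libraries call fewer genes.

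Replicate numbers 2 and 3 were shared by both groups, and same-numbered libraries deviated together by 0.27 and -0.21 (correlation across genes). These 2 values cannot settle whether the numbers pair the libraries, and the main fits did not pair them. With the replicate block, 5823 genes were called against wild type, 916 at equal scores, 584 the same way in both, and 2614 between the alleles.

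Among the named genes called against wild type, 101 of 174 kept their call under every alternative, and 47 of 88 at equal scores. Slopes from wild-type libraries gave no tested count at equal scores, only the description in the report, with 2981 to 3177 genes following without 1 wild-type library and 2678 when the expected change had to be at least 0.8 of the observed.

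Both scores come from the libraries they adjust, and the groups did not overlap in either, so a gene whose response to *et15* runs alongside molting or yolk cannot be told apart from one that follows stage.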
